A study of Mus musculus with 12 samples.

Results

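The genes Egr1, Egr2, Egr3, Nr4a1, Ier2, Klf2, Klf4, Klf6, Klf10 and Zfp36 were followed across mouse mammary tumours treated with MBQ-167, paclitaxel or both. They are 10 of the 46078 genes in the count table, found by matching gene symbols to Ensembl identifiers, and all 10 passed the filter on low counts. The set was chosen from earlier results of the same libraries, in which immediate early genes were lower in drug-treated than in vehicle tumours. Values against vehicle are therefore a description of the genes and no test of them. The tumours grew from 4T1 cells, a metastatic mammary carcinoma line of BALB/c origin that here carried firefly luciferase, placed in the mammary fat pad of BALB/c mice with their own immune cells. MBQ-167, which inhibits the GTPases Rac and Cdc42, was given at 100 mg/kg on 5 days a week, and paclitaxel, which stabilises microtubules, at 5 mg/kg 1 time a week. The combination group received both drugs and the vehicle group neither. Treatment started on day 14 and tumours were taken on day 28. Each of the 4 groups holds 3 libraries of polyA RNA, named as biological replicates with a wild type genotype. The labels do not give the age of the mice. The cells were injected on 2 occasions that the labels do not assign to libraries, so group and injection occasion cannot be told apart.

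Immediate early genes are transcribed within minutes of a signal, before any new protein is made, through factors already bound to DNA such as serum response factor with its ELK partners and CREB. Their products are mostly transcription factors and regulators of mRNA decay, with short-lived mRNA and protein. EGR proteins are zinc finger activators that induce their own NAB co-repressors, NR4A1 is an orphan nuclear receptor, KLF proteins bind GC-rich and CACCC sequences, and ZFP36 (tristetraprolin) binds AU-rich elements in cytokine and growth factor mRNAs and speeds their decay. In tumours these genes can be active in carcinoma cells and in the infiltrating leukocytes, endothelium and fibroblasts.

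Total counts ran from 11540557 to 17001562 per library. A share of 17.11% to 37.54% fell on a ribosomal locus on chromosome 17. The 10 keratin and epithelial marker genes of the tumour cells had summed levels of 1050 to 1590, 1210 to 1320, 994 to 1770 and 998 to 3080 CPM (counts scaled to library size) in MBQ-167, paclitaxel, combination and vehicle libraries, while none of the 4 lung epithelial markers passed the filter. The 15 neutrophil markers summed to 226 to 353 CPM in MBQ-167, 215 to 296 CPM in paclitaxel and 220 to 327 CPM in combination libraries, against 384 to 1650 CPM in vehicle libraries. Levels below are CPM scaled by the TMM method, and fold changes come from a model over all 12 libraries.

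Divided by exon length, Klf6 stood highest of the 10 genes in every group, at 32 ± 1.56 CPM per kb in MBQ-167, 32.9 ± 0.176 in paclitaxel, 34 ± 1.49 in combination and 50.4 ± 6.56 in vehicle tumours (SD, n = 3 each). Ier2 came next, at 30.5 ± 1.53, 27.2 ± 1, 24.8 ± 4.86 and 31.3 ± 2.42 CPM per kb in the same order of groups. In vehicle tumours Klf10 (25 ± 2.55 CPM per kb) and Klf2 (23.1 ± 3.47) followed and overlapped each other. Klf4 (10.1 ± 1.38), Zfp36 (8.91 ± 1.86) and Egr1 (7.64 ± 1.62) overlapped their neighbours, as did Nr4a1 (4.52 ± 1.03) and Egr2 (3.76 ± 1.33). Egr3 stood lowest in all groups, at 0.35 ± 0.0379 CPM per kb in vehicle tumours, where it rested on 18, 20 and 25 counts. Ranked by CPM per kb among all tested genes, Klf4 stood at percentile 60 with MBQ-167, 56 with paclitaxel and 62 with the combination, against 78.2 in vehicle tumours. Nr4a1 stood at 39.9, 35.8 and 41.6 against 57.9 in vehicle, and Klf2 at 76.6, 76.6 and 81.2 against 91.4 in vehicle.

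**Figure D1:**
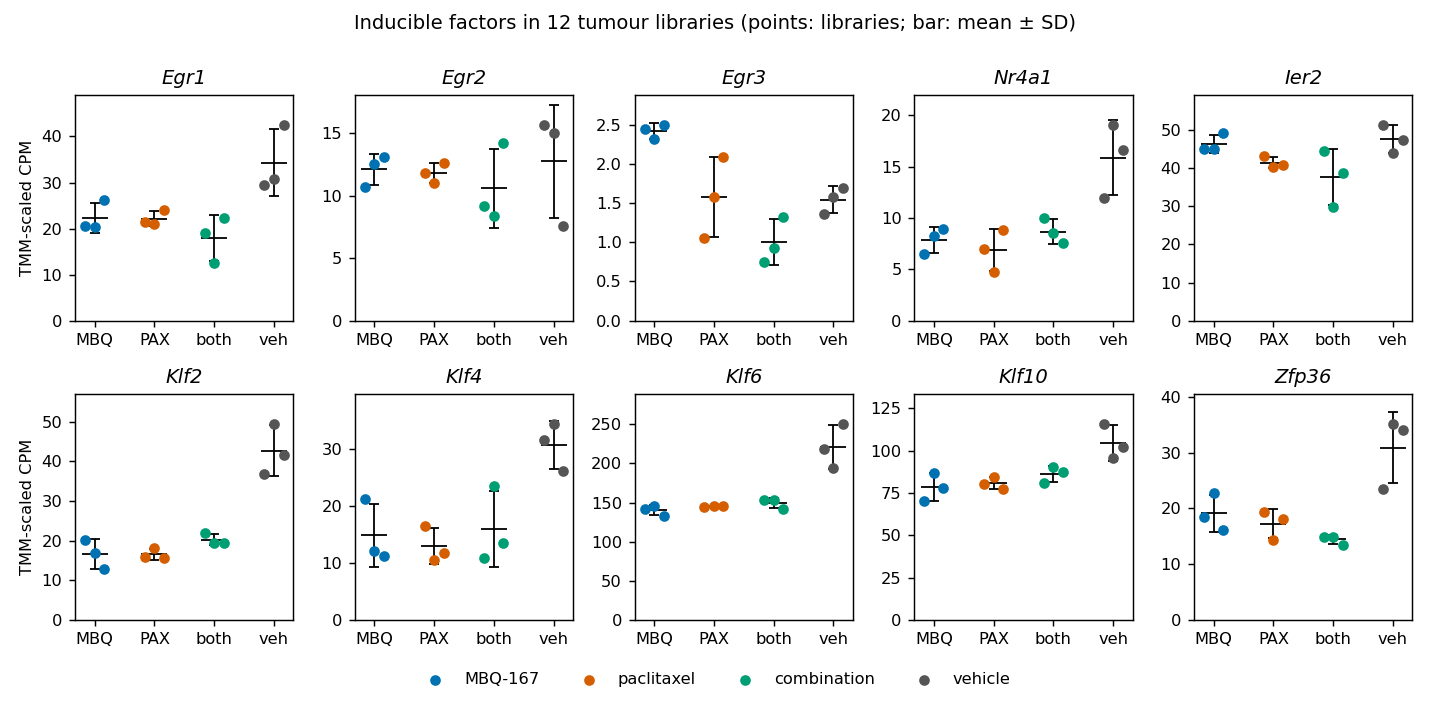
TMM-scaled CPM of the 10 genes, 1 panel per gene and a linear axis starting at 0; points are libraries of the MBQ-167 (MBQ), paclitaxel (PAX), combination (both) and vehicle (veh) groups, and bars are the mean ± SD of 3 libraries. In 7 panels all 9 drug libraries lie below all 3 vehicle libraries; Egr2, Egr3 and Ier2 overlap.

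Promoter windows from RefSeq (GRCm38.p6) running 250 bases upstream to 50 bases downstream of the annotated start were found for 6 of the 10 genes, Egr2, Klf2, Klf4, Klf6, Nr4a1 and Zfp36. The other 4 are Egr1, Egr3, Ier2 and Klf10. The sequences below are those of Klf2, Nr4a1 and Zfp36, which were lower with the drugs, and of Egr2, which showed little change. Those of Klf4 and Klf6, also lower, are not printed. The Klf2 window is chr8:72318812-72319111 (plus strand), that of Nr4a1 chr15:101266596-101266895 (plus strand), that of Zfp36 chr7:28379179-28379478 (minus strand) and the Egr2 window, the first of 3 overlapping windows listed for it that hold both a CArG box and CRE motifs, chr10:67537619-67537918 (plus strand). Capitals mark matches, on either strand, to the CArG box bound by serum response factor, the CRE motif TGACG bound by CREB, the AP-1 site TGANTCA and the EGR site GCGNGGGCG.
Klf2: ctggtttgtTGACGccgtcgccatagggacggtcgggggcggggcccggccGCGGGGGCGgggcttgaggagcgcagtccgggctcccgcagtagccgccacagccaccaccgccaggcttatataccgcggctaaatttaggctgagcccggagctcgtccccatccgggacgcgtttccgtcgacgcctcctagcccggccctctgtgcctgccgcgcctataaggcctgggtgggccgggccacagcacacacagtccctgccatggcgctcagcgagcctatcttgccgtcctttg
Nr4a1: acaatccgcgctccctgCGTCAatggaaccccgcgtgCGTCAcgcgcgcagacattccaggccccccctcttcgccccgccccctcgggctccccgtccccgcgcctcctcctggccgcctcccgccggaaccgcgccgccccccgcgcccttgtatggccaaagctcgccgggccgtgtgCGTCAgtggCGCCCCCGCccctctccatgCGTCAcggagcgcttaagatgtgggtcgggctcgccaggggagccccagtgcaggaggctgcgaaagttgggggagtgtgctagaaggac
Zfp36: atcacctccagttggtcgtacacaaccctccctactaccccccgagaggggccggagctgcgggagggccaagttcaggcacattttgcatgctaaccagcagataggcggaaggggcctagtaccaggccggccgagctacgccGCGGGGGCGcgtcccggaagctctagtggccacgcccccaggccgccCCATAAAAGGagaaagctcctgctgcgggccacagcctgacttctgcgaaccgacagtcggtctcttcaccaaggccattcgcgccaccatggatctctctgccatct
Egr2: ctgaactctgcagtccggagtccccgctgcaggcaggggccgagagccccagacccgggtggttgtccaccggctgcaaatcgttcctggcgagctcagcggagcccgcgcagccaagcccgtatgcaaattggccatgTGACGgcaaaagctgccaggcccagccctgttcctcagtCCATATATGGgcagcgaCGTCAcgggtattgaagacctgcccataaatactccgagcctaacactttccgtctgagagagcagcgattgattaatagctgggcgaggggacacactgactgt

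A CArG box stood in the windows of Zfp36 (first base at -58 from the start) and Egr2 (-72), against 1.6% of 32851 mouse promoter windows of the same length. The Egr2 window was picked because it holds a CArG box and CRE motifs, so its matches cannot be set against the shares of all windows. Of the other Egr2 windows, that starting at chr10:67535249 held neither motif. The window starting at chr10:67537316 held a CArG box but no CRE motif. The CRE motif was found 4 times in Nr4a1 (-233, -213, -69 and -40), 2 times in the Egr2 window shown and 1 time each in Klf2 (-241) and Klf4 (-232), and in 20.8% of all windows. An EGR site lay in Klf2 (-199), Nr4a1 (-60) and Zfp36 (-105) and 2 times in Klf4 (-211 and -194), against 5.6% of all windows. In Klf2, Klf4 and Nr4a1 it overlapped a GC box, GGGCGG, which 35.7% of windows hold. No AP-1 site (7.8% of windows) was in any of the windows listed for these 6 genes, and that of Klf6 held none of the 4 marked motifs. These are matches of letters and no evidence of binding. Klf2, which was lower in all 3 drug groups, and Egr2, which differed little, both held a CRE motif, Egr2 in the window picked for it.

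Egr1 (ENSMUSG00000038418, chromosome 18, 34859823 to 34864984, GRCm38), the archetypal growth factor-induced zinc finger activator, had 20.5, 20.3 and 26.1 CPM in the MBQ-167 libraries, 21.4, 21.1 and 24 CPM in the paclitaxel libraries and 19, 12.5 and 22.2 CPM in the combination libraries, against 29.4, 30.8 and 42.6 CPM in the vehicle libraries. All 9 drug libraries lay below all 3 vehicle libraries, and the gap between the highest drug library, MBQ-167 library 3, and the lowest vehicle library was small. The log2 fold change was -0.62 ± 0.20 (SE) with MBQ-167, -0.63 ± 0.20 with paclitaxel and -0.94 ± 0.20 with the combination. Without vehicle library 3, the highest of the 12, these were -0.43, -0.44 and -0.75.

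Egr2 (ENSMUSG00000037868, chromosome 10, 67535475 to 67542188), known for its part in myelination and in T cell tolerance, had 10.7, 12.5 and 13.1 CPM with MBQ-167, 11.8, 11 and 12.6 CPM with paclitaxel and 9.2, 8.36 and 14.2 CPM with the combination, against 15.7, 15 and 7.56 CPM in vehicle. The vehicle libraries spanned the drug libraries: 2 of them were above all drug libraries and vehicle 3 was below all of them. Its changes of -0.07, -0.11 and -0.26 on the log2 scale (SE 0.26 each) lay within that spread. Egr1 and Egr2 thus went opposite ways in vehicle library 3.

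Egr3 (ENSMUSG00000033730, chromosome 14, 70077203 to 70082614), which acts with Egr2 in restraining activated lymphocytes, was the gene of the set that stood apart in direction. It had 2.44, 2.31 and 2.5 CPM with MBQ-167, 1.06, 1.58 and 2.09 CPM with paclitaxel and 0.744, 0.929 and 1.32 CPM with the combination, against 1.36, 1.58 and 1.69 CPM in vehicle. All 3 MBQ-167 libraries were above, and all 3 combination libraries below, the vehicle libraries, while the paclitaxel libraries spanned them. The log2 fold changes were 0.64 ± 0.35, 0.02 ± 0.36 and -0.60 ± 0.37 for MBQ-167, paclitaxel and the combination, each with an interval (95%) that includes 0. These levels rest on 8 to 41 counts per library.

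Nr4a1 (ENSMUSG00000023034, chromosome 15, 101254269 to 101274795), also called Nur77 and induced by antigen receptor and stress signals, had 6.45, 8.23 and 8.89 CPM with MBQ-167, 6.99, 4.74 and 8.84 CPM with paclitaxel and 10, 8.49 and 7.54 CPM with the combination, against 11.9, 19.1 and 16.6 CPM in vehicle. No drug library reached the lowest vehicle library. Log2 fold changes of -1.01 ± 0.24, -1.20 ± 0.24 and -0.87 ± 0.24 correspond to 0.496, 0.434 and 0.545 of the vehicle level. Ier2 (ENSMUSG00000053560, chromosome 8, 84661331 to 84662852), a nuclear protein of the immediate early response, had 45, 45.1 and 49.1 CPM with MBQ-167, 43.1, 40.2 and 40.9 CPM with paclitaxel and 44.5, 29.9 and 38.8 CPM with the combination, against 51.4, 44 and 47.3 CPM in vehicle. MBQ-167 and vehicle libraries were intermixed, and the 3 paclitaxel libraries lay just below the vehicle ones. In log2 units the differences were small, at -0.03 ± 0.13, -0.20 ± 0.13 and -0.34 ± 0.14.

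Klf2 (ENSMUSG00000055148, chromosome 8, 72319033 to 72321656), which maintains quiescence in endothelium and T cells, had the largest fold of the 10 genes with each single drug. It had 20.2, 16.9 and 12.7 CPM in the MBQ-167 libraries, 15.8, 18.2 and 15.6 CPM in the paclitaxel libraries and 21.8, 19.5 and 19.4 CPM in the combination libraries, against 36.8, 49.5 and 41.7 CPM in the vehicle libraries. The lowest vehicle library was well above the highest drug library. The log2 fold changes were -1.36 ± 0.17 with MBQ-167, -1.37 ± 0.17 with paclitaxel and -1.08 ± 0.17 with the combination, or 0.389, 0.388 and 0.474 of the vehicle level. They stayed between -1.53 and -0.96 under every alternative tried and with any 1 library left out. In bulk tumour RNA, fewer cells of a type and less RNA per cell cannot be told apart. The 12 endothelial markers, a cell type in which Klf2 is high, summed to 317 to 413, 299 to 404 and 317 to 431 CPM in the MBQ-167, paclitaxel and combination libraries, against 316 to 410 CPM in vehicle libraries, and their median log2 fold changes were 0.04, 0.01 and 0.05. T and NK cell markers, from another Klf2-expressing type, summed to 27.8 to 34.7, 25.3 to 52.7 and 28 to 33.3 CPM with the drugs. In vehicle they summed to 7.9 (vehicle library 3) to 23.8 CPM, opposite in direction to Klf2. Neutrophil and erythroid markers went in the same direction as Klf2. Their median log2 fold changes were -1.77, -2.93 and -2.68 (neutrophil) and -1.69, -2.38 and -2.67 (erythroid) with MBQ-167, paclitaxel and the combination.

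Klf4 (ENSMUSG00000003032, chromosome 4, 55527143 to 55532466), a factor of epithelial barriers, macrophages and pluripotent cells, varied most within groups. Its levels were 21.2, 12.1 and 11.3 CPM with MBQ-167, 16.5, 10.5 and 11.8 CPM with paclitaxel and 10.8, 23.6 and 13.5 CPM with the combination, against 31.7, 34.5 and 26.2 CPM in vehicle. All drug libraries were below vehicle, MBQ-167 library 1 and combination library 2 coming nearest. The log2 fold changes were -1.05, -1.24 and -0.94 (SE 0.29 each).

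Klf6 (ENSMUSG00000000078, chromosome 13, 5861482 to 5870394), a widely expressed factor induced by injury, varied least. It had 142, 146 and 133 CPM with MBQ-167, 144, 145 and 145 CPM with paclitaxel and 153, 153 and 142 CPM with the combination, against 218, 194 and 251 CPM in vehicle. The 3 drug groups sat in a narrow band well below vehicle, with log2 fold changes of -0.65, -0.61 and -0.57 (SE 0.11 each). Klf10 (ENSMUSG00000037465, chromosome 15, 38291463 to 38300706), induced early by TGF-beta, had 70.1, 86.9 and 78.2 CPM with MBQ-167, 80.2, 84.4 and 77.5 CPM with paclitaxel and 81, 90.2 and 87.6 CPM with the combination, against 116, 95.4 and 102 CPM in vehicle. The groups did not overlap, though combination library 2 and vehicle library 2 lay close together, and the log2 fold changes of -0.41, -0.37 and -0.28 (SE 0.11 each) were the smallest among the 4 KLF genes.

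Zfp36 (ENSMUSG00000044786, chromosome 7, 28376784 to 28380253), the mRNA decay factor, had 18.4, 22.7 and 16.2 CPM with MBQ-167, 19.3, 14.4 and 18.1 CPM with paclitaxel and 14.9, 14.9 and 13.5 CPM with the combination, against 23.5, 35.2 and 34 CPM in vehicle. All drug libraries were below vehicle, MBQ-167 library 2 and vehicle library 1 being nearly level. The log2 fold changes were -0.70, -0.84 and -1.10 (SE 0.18 each), so that the combination had the lowest mean of the groups. An exon of Zfp36 overlaps the opposite-strand gene Gm44710, and since the strandedness of the libraries is not known here, reads of the pair cannot be told apart.

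**Figure D2:**
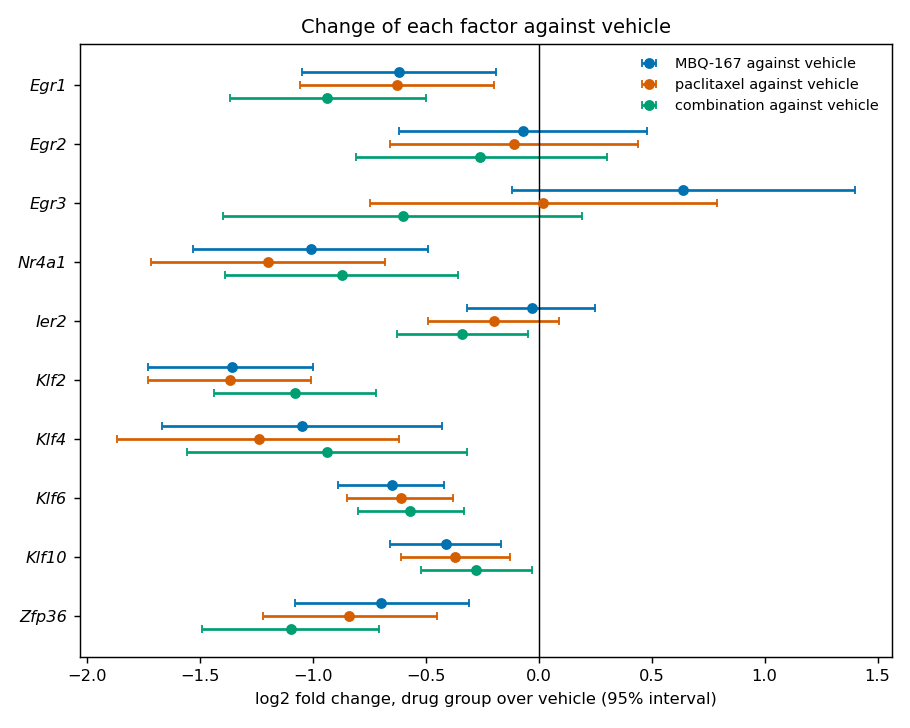
Log2 fold change of each gene in the MBQ-167, paclitaxel and combination groups over vehicle (x axis), with 95% intervals from the model over all 12 libraries. Klf2 lies farthest below 0 with each single drug (-1.36 and -1.37), and Egr3 is at 0.64, 0.02 and -0.60.

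Against vehicle, 2 of the 10 genes passed the threshold with MBQ-167 (Klf2 and Klf6), where 0.0767% of the 18252 genes tested were called lower (edgeR quasi-likelihood test, Benjamini-Hochberg adjusted p under 0.05 over all genes). With paclitaxel 5 passed (Klf2, Klf6, Nr4a1, Zfp36 and Klf4), where 2.49% of all genes were called lower, and with the combination 4 passed (Klf2, Zfp36, Klf6 and Egr1), where 0.811% were. Since these contrasts chose the genes, nothing is read from the counts. Klf2 and Klf6 were the members called in all 3 comparisons. The Klf6 call with MBQ-167 was lost without any of MBQ-167 libraries 1, 2 and 3 or vehicle libraries 1 and 3, with its log2 fold change between -0.55 and -0.69. Of the 4 combination calls none remained without combination library 2 (Klf2 -1.05, Zfp36 -1.13, Klf6 -0.59, Egr1 -0.73), Klf2 remained without combination library 1, and Klf2 and Zfp36 without vehicle library 1. Egr1 also missed the threshold without vehicle library 3 (-0.75) and Klf6 without combination library 3 (-0.54). Of the 5 paclitaxel calls Klf2 and Klf6 remained without paclitaxel library 2, and Klf4 missed the threshold without paclitaxel library 3 (-1.18), vehicle library 1 (-1.23) or vehicle library 2 (-1.15). When only the groups compared were fitted, 0, 2 and 0 of the genes passed with edgeR for MBQ-167, paclitaxel and the combination.

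In 7 of the 10 genes each MBQ-167 library was lower than each vehicle library, against 8.79% of all genes tested. The same held in 8 genes with paclitaxel, against 12.1%, and in 8 with the combination, against 9.86%. In 7 genes (Egr1, Nr4a1, Klf2, Klf4, Klf6, Klf10 and Zfp36) all 9 drug libraries lay below all 3 vehicle libraries, as in 3.95% of all genes. The 3 comparisons share the vehicle libraries and are not independent of each other. The median log2 fold change of the 10 genes was -0.64 with MBQ-167, -0.62 with paclitaxel and -0.74 with the combination, and that of all genes tested was 0 in each.

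The contrasts between drug groups, which hold no vehicle library, ask whether the drugs or their addition differed in these genes. None of the 10 genes passed the threshold in the combination against MBQ-167, the combination against paclitaxel or paclitaxel against MBQ-167, where 0% of all genes were called by the edgeR quasi-likelihood test. DESeq2 and limma voom also called 0 of the 10. At an unadjusted p under 0.05 there were 3, 0 and 0 of the 10, beside 940, 430 and 1256 of all genes. DESeq2 called 1, 5 and 36 of all genes in the 3 contrasts, and limma voom 0 in each.

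Egr3 differed most between drug groups, with 0.744, 0.929 and 1.32 CPM in combination libraries against 2.44, 2.31 and 2.5 CPM in MBQ-167 libraries. The groups did not overlap, and the log2 fold change of the combination over MBQ-167 was -1.25 ± 0.36 (95% interval -2.02 to -0.47, edgeR adjusted p = 0.879 over all genes). It kept its sign with each library left out, between -1.52 and -1.09. The other 2 genes under an unadjusted p of 0.05 were Zfp36, at -0.40 ± 0.18 (-0.79 to -0.01), and Ier2, at -0.30 ± 0.14 (-0.59 to -0.01), each with an edgeR adjusted p = 0.937. Both were lower in all 3 combination libraries than in all 3 MBQ-167 libraries, though for Ier2 the nearest libraries had 44.5 and 45 CPM. The share of all genes so separated between any drug groups was not counted, so nothing is read from such separations.

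Klf2 was higher in all 3 combination libraries than in all 3 paclitaxel libraries, with a log2 fold change of 0.29 ± 0.17 (95% interval -0.07 to 0.65, edgeR adjusted p = 1). The combination over MBQ-167 gave 0.28 ± 0.17 (-0.08 to 0.65) for Klf2, whose libraries overlapped there, and paclitaxel over MBQ-167 gave 0.00 ± 0.17 (-0.37 to 0.36). For Klf6 the 3 contrasts were bounded most tightly, at 0.09 (-0.14 to 0.32) for the combination over MBQ-167, 0.05 (-0.19 to 0.28) for the combination over paclitaxel and 0.04 (-0.19 to 0.27) for paclitaxel over MBQ-167. Klf10 had similarly narrow intervals, whose bounds lay between -0.20 and 0.38. Klf4 and Nr4a1 had wide ones, whose upper bounds reached 0.93 and 0.85 for the combination over paclitaxel. Egr1 had -0.32 for the combination over MBQ-167 and -0.31 for the combination over paclitaxel. A p that misses the threshold does not show equal levels.

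The interaction compares the combination with what both single changes would give if they added on the log2 scale. It was positive in 7 of the 10 genes, with a median of 0.47 against 0 for all genes tested. Klf2 was the gene of the set that passed, at 1.65 ± 0.24 (SE), where 0.0603% of all genes were called in either direction. Its level with both drugs (20.2 ± 1.4 CPM) was no lower than with MBQ-167 (16.6 ± 3.75 CPM) or paclitaxel alone (16.6 ± 1.47 CPM), against 42.7 ± 6.4 CPM in vehicle (SD, n = 3 each). Klf4 (1.35 ± 0.41), Nr4a1 (1.34 ± 0.34), Klf6 (0.70 ± 0.15) and Klf10 (0.51 ± 0.16) had positive interactions that did not pass, as did Zfp36 (0.43 ± 0.26). Egr3 had -1.27 ± 0.51, also not past the threshold. The Klf2 interaction did not pass without MBQ-167 library 2 (1.67) or 3 (1.49), paclitaxel library 1 (1.62) or 3 (1.61), or combination library 2 (1.68). The vehicle libraries enter this contrast too, which is again one that chose the genes.

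**Figure D3:**
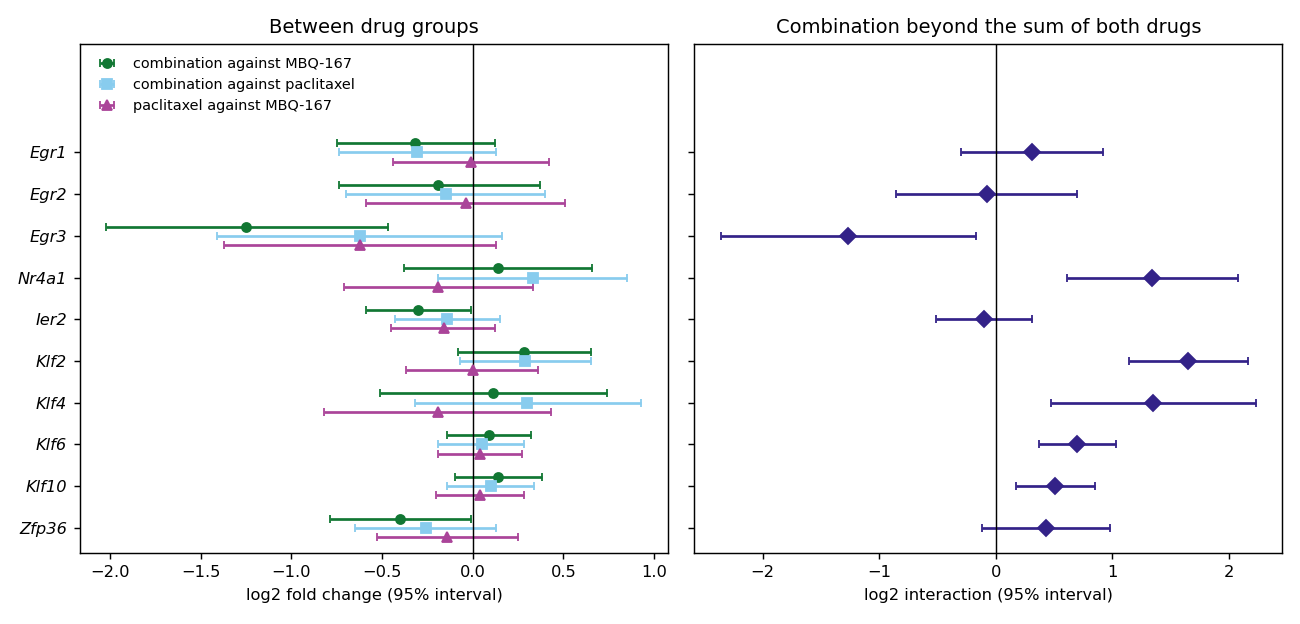
Left, log2 fold changes between drug groups; right, the interaction (log2 change with the combination less the changes with each single drug), both with 95% intervals per gene. On the left most intervals include 0 and Egr3 in the combination over MBQ-167 lies lowest at -1.25; on the right Klf2 is at 1.65 and Egr3 at -1.27.

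Within groups the 10 genes did not move as a block. The pooled within-group SD of log2 CPM was smallest in Klf6 (0.11), Klf10 (0.12) and Ier2 (0.16), then Klf2 (0.21), Zfp36 (0.23), Egr1 (0.28), Egr3 (0.30), Nr4a1 (0.32) and Egr2 (0.37), and largest in Klf4 (0.43). In each library between 4 and 6 of the 10 genes were above their own group mean, and the mean within-group deviation of the set stayed between -0.09 and 0.09 log2 units. Klf4 was on the same side of its group mean as the mean of the other genes in 2 of 12 libraries, and Egr2 and Nr4a1 in 7 of 12. Against the mean of all 12 libraries, the set as a whole averaged -0.06 log2 units with MBQ-167, -0.18 with paclitaxel and -0.23 with the combination, against 0.47 in vehicle tumours. Egr3, at 8 to 41 counts, weighs on the order of the drug groups. It lay at 0.62, 0.55 and 0.65 with MBQ-167 and at -0.93, -0.65 and -0.2 with the combination. The set means used below also include Egr3.

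The same direction was seen in other immediate early genes, a list that earlier results had already shown to be lower. Of 20 tested members 5 passed and were lower with MBQ-167 (Fos, Dusp1, Atf3, Fosb and Jund), 10 with paclitaxel and 9 with the combination, with median log2 fold changes of -0.48, -0.52 and -0.56, where 0.0767%, 2.49% and 0.811% of all genes were called lower. With each library left out in turn 3 to 5, 6 to 10 and 3 to 7 of the 20 passed. The MBQ-167 count was 3 without MBQ-167 library 3 and the paclitaxel count 6 without paclitaxel library 2. The combination count was 3 without combination library 1 or vehicle library 1, and 4 without combination library 2 or 3. Of these genes, Fos, Dusp1, Atf3 and Fosb were lower by more than any of the 10 genes, Fos with -2.38 ± 0.23, -2.44 ± 0.23 and -1.95 ± 0.22. In the interaction 5 of the 20 passed and were higher, namely Fos (2.88 ± 0.32), Fosb (4.81 ± 0.56), Atf3 (2.17 ± 0.31), Jund (1.90 ± 0.28) and Dusp1 (1.49 ± 0.22), where 0.0603% of all genes were called. With each library left out 2 to 5 of the 20 passed, 2 without any of MBQ-167 libraries 1, 2 and 3, paclitaxel library 3 or combination library 2, and 3 without paclitaxel library 2 or vehicle library 1.

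The closest relatives of the 10 genes were read against the 2.49% of all genes called lower with paclitaxel and 0.811% with the combination. An unadjusted p under 0.05 was met by 2348, 4126 and 3350 of the 18252 genes tested with MBQ-167, paclitaxel and the combination. Of the paralogs and other IER genes, 6 of 7 were tested, Egr4 being at or near 0. With MBQ-167 none passed with edgeR, DESeq2 or limma voom, and 2 had an unadjusted p under 0.05. With paclitaxel Ier5 fell (-0.49 ± 0.13), and with the combination Ier3, a regulator of apoptosis, fell, with 47.9, 48.9 and 40.4 CPM against 72.2, 98.5 and 103 CPM in vehicle. The Ier5 call was lost without paclitaxel library 1 or 2 or vehicle library 2, and the Ier3 call without any of the 3 combination libraries. Nr4a2 had -0.53 ± 0.31, -0.38 ± 0.31 and -0.47 ± 0.31 and Nr4a3 -0.36 ± 0.28, -0.20 ± 0.27 and 0.03 ± 0.27 for MBQ-167, paclitaxel and the combination. Zfp36l1 had -0.22, -0.22 and -0.42 (SE 0.12 each) and Zfp36l2 -0.11, -0.30 and -0.37 (SE 0.11 each), also not past the threshold. Of the 10 other KLF genes tested, Klf5 alone passed, with paclitaxel (-0.93 ± 0.22), and the list medians were -0.26, -0.22 and -0.29. The Klf5 call was lost without any of paclitaxel libraries 1, 2 and 3 or vehicle libraries 1 and 3. With MBQ-167 and the combination 3 and 1 of these had an unadjusted p under 0.05, and DESeq2 called 0 and 1.

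Among 18 upstream kinases and factors, including Srf, the Elk and Mef2 genes and the ERK pathway, none passed with MBQ-167 by edgeR or DESeq2. At an unadjusted p under 0.05 there were 1, 8 and 7 of the 18 with MBQ-167, paclitaxel and the combination, beside 2348, 4126 and 3350 of all 18252 genes. The member that passed with the other treatments was higher: Creb1, the cyclic AMP response factor, rose with paclitaxel (0.59 ± 0.10) and with the combination (0.48 ± 0.10), at 102, 110 and 93.3 CPM in paclitaxel and 92.5, 93.7 and 98 CPM in combination libraries, against 64.4, 67.4 and 71.4 CPM in vehicle. It had 83.4, 81.7 and 81.1 CPM with MBQ-167, also above all vehicle libraries, but did not pass there. The combination call of Creb1 was lost without any of combination libraries 1, 2 and 3 or vehicle libraries 1 and 2, while 1 to 2 of the 18 passed with paclitaxel whichever library was left out. Lower with paclitaxel, at an unadjusted p under 0.05 but not past the threshold, were among others Mrtfa (-0.48 ± 0.16), a coactivator of serum response factor, and the kinase genes Map2k2 (-0.45 ± 0.13) and Mapk3 (-0.41 ± 0.17). Higher in the same way were Mef2c (0.72 ± 0.26) and Mrtfb (0.27 ± 0.12). Of the 18 genes 9 were higher and 9 lower with paclitaxel. The list medians were -0.02, -0.02 and -0.14.

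Lists of genes that these factors act on were read against the same shares of all genes, 2.49% with paclitaxel and 0.811% with the combination. Counts at an unadjusted p under 0.05 stand beside 2348, 4126 and 3350 of all 18252 genes with MBQ-167, paclitaxel and the combination. Of 11 EGR co-repressors and targets, Nab2, the co-repressor that EGR proteins induce, passed with paclitaxel (-0.45 ± 0.12), with 37.2, 34.1 and 32.5 CPM against 43.8, 51.4 and 46.5 CPM in vehicle. That call was lost without any 1 of the 6 libraries compared. None of the 11 passed with MBQ-167 or the combination by edgeR or DESeq2, and 3 had an unadjusted p under 0.05 in each. Fasl went the other way from Nab2, at 1.7 ± 0.62 with MBQ-167 and 1.46 ± 0.62 with paclitaxel, and did not pass. It was scarce, at 0.453, 0.158 and 0.203 CPM in vehicle. Of the 11 genes 9, 6 and 8 were lower with MBQ-167, paclitaxel and the combination. Of 10 KLF2 and KLF4 targets of endothelium and lymphocytes, Cdkn1a, the cell cycle inhibitor p21, passed with paclitaxel (-0.52 ± 0.14), and the list medians were -0.04, -0.12 and 0.09. The Cdkn1a call was lost without paclitaxel library 1 or 2 or vehicle library 1 or 2. Il7r was higher with paclitaxel (1.23 ± 0.38), at an unadjusted p under 0.05 but not past the threshold. Of the 10 genes 4 were higher and 6 lower with paclitaxel. With MBQ-167 and the combination none of the 10 passed by edgeR, 1 in each had an unadjusted p under 0.05, and DESeq2 called 1 and 0. Of 14 mRNAs bound by ZFP36, Ier3 and Il1b, the inflammatory cytokine interleukin 1 beta, fell with the combination (Il1b -1.03 ± 0.23), and none passed with either single drug, though 3 had an unadjusted p under 0.05 in each. Both combination calls were lost without any of combination libraries 1, 2 and 3, and 1 of the 14 passed without vehicle library 1 or 2. DESeq2 called 0 of these 14 with MBQ-167 and 1 with paclitaxel. The ZFP36-bound list had medians of -0.23, 0.05 and -0.39, on the same side as Zfp36 itself with MBQ-167 and the combination.

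**Figure D4:**
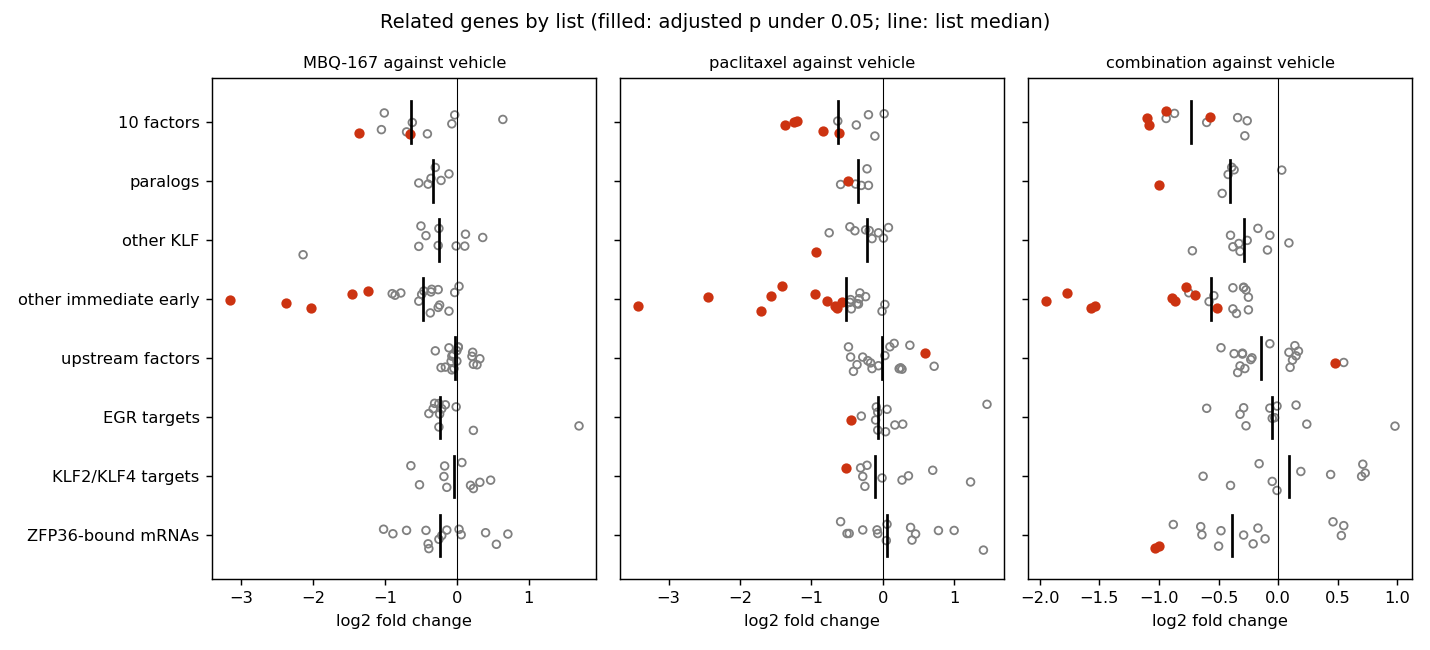
Log2 fold change over vehicle (x axis) of each tested gene in the 10-gene set and 7 related lists, for MBQ-167, paclitaxel and the combination; filled points passed the edgeR test over all genes, and vertical lines are list medians. The other immediate early genes extend farthest to the left, and the upstream factors have medians of -0.02, -0.02 and -0.14.

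Several properties of the libraries moved with the level of these genes. The mean log2 CPM deviation of the 10 genes was -0.09 to -0.04 in MBQ-167, -0.28 to -0.1 in paclitaxel and -0.27 to -0.16 in combination libraries, against 0.4 to 0.54 in vehicle libraries. The mean log2 CPM of the neutrophil markers was 2.68 to 3.25, 1.61 to 2.66 and 1.72 to 2.72 in the same drug groups and 3.5 to 5.92 in vehicle. Vehicle library 3 stood apart with the highest neutrophil level, 5.92, while its level of the 10 genes, 0.46, was between those of vehicle libraries 1 (0.4) and 2 (0.54). The correlation across genes between a library's deviation and GC content was 0.001 to 0.147 in MBQ-167, -0.292 to -0.113 in paclitaxel and -0.196 to -0.033 in combination libraries, against 0.11 to 0.304 in vehicle. The 10 genes have a GC content of 47.7% to 61.6%, Klf2 and Klf4 the highest, where the median tested gene has 50.3%. Erythroid markers summed to 44.6 to 108, 14.5 to 107 and 32.6 to 67.5 CPM with the drugs and 258 to 265 CPM in vehicle. Summed levels of macrophage and of fibroblast markers overlapped between drug and vehicle libraries. Of the 10 macrophage markers 9 were below 0 with each treatment, with median log2 fold changes of -0.19, -0.33 and -0.24. Cd14 alone of them passed, with paclitaxel. The epithelial tumour cell markers had median log2 fold changes of -0.78, -0.56 and -0.33 for MBQ-167, paclitaxel and the combination. Of these 10 markers 8, 9 and 8 were below 0 and 1 passed, Krt8 with paclitaxel, while their summed levels overlapped between drug and vehicle libraries.

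With a per-library correction for GC content, Klf2 had log2 fold changes of -1.31, -1.19 and -0.96 for MBQ-167, paclitaxel and the combination, and each still passed. Klf6 had -0.67, -0.65 and -0.60 and also still passed. The paclitaxel calls of Klf4 (-1.05) and Zfp36 (-0.72) and the combination call of Egr1 (-0.85) did not pass. With the neutrophil level as a covariate Klf2 had -1.44, -1.49 and -1.20 and Klf4 -1.35, -1.72 and -1.44, no smaller than without it. Egr1 had -0.32, -0.12 and -0.46 and Klf6 -0.52, -0.38 and -0.35 with this covariate. Egr2 had -0.43, -0.78 and -0.89 under it, against -0.07, -0.11 and -0.26 without it, and did not pass (edgeR adjusted p = 0.515, 0.264 and 0.225). Under that covariate, which runs with the groups, Klf2 passed with MBQ-167 and paclitaxel and was the gene that passed in any comparison with vehicle. The neutrophil level was higher in each vehicle library than in any drug library, so its part and that of treatment cannot be told apart. Vehicle library 3, with the highest neutrophil level (5.92), also had the highest Egr1 and the lowest Egr2 level of all libraries. The part of neutrophil, macrophage, erythroid and epithelial content in these values was not tested.

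**Figure D5:**
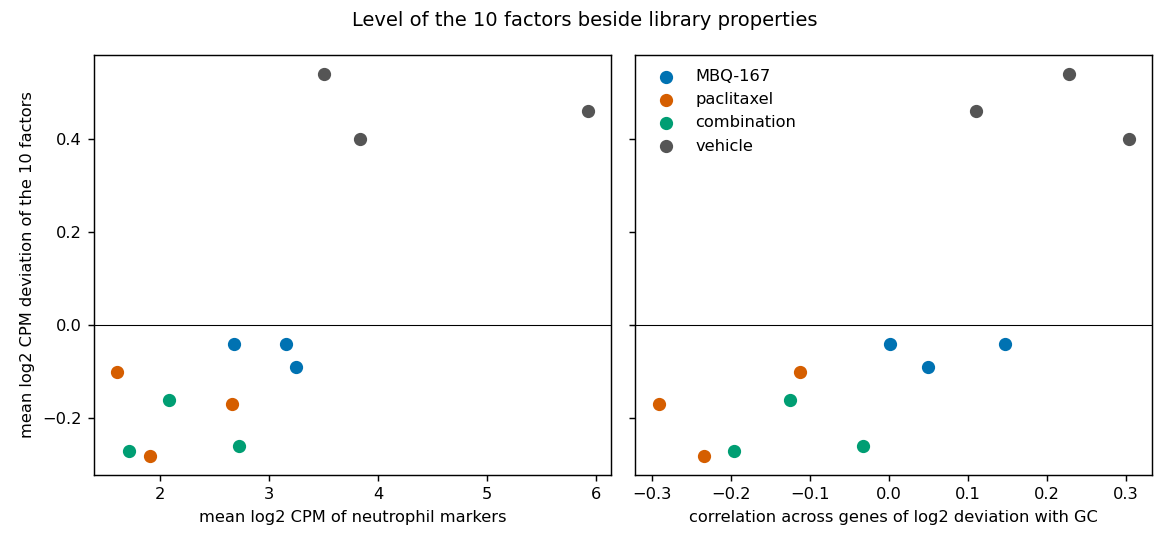
Mean log2 CPM deviation of the 10 genes (y axis) in each of 12 libraries beside the mean log2 CPM of the neutrophil markers (left) and the correlation of the library's deviations with GC content across genes (right). The 3 vehicle libraries lie at 0.4 to 0.54, above all 9 drug libraries, and vehicle 3 has the highest neutrophil level, 5.92.

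Across the 12 libraries, the non-member genes whose deviations were nearest to the mean of the 10 were Ywhah (mean absolute difference 0.078 log2 units), Nelfe (0.089), Bsg (0.092), Rab31 (0.093) and Hsp90ab1 (0.095), where the median of 11514 genes compared was 0.275. They averaged -0.08 to 0.01 with MBQ-167, -0.26 to -0.15 with paclitaxel and -0.21 to -0.07 with the combination, against 0.37 to 0.44 in vehicle. Ywhah encodes a 14-3-3 protein, Nelfe a subunit of the complex that pauses RNA polymerase, Bsg the transporter partner basigin, Rab31 a small GTPase of vesicle transport and Hsp90ab1 a cytosolic chaperone. None of them is in the related lists.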

How the data were processed

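Tumour RNA of 12 libraries was sequenced, and the deposited values are raw read counts per gene, made by the authors with HISAT2, HTSeq and GRCm38 per the submitters' processing notes, which also name DESeq2. Not given in the sources used here are tool versions, the annotation version, strandedness and the handling of reads with several matches. The 10 genes, the related lists and the alternatives were chosen with earlier results of these data known. Symbols, coordinates and GC content came from GENCODE vM21 (GRCm38), which named 45229 of 46078 identifiers.

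Genes were kept by filterByExpr of edgeR 4.0.16 (minimum count 10; 18252 genes), scaled by TMM and fitted with the quasi-likelihood model to all 12 libraries (8 residual degrees of freedom before sharing across genes; biological coefficient of variation 0.214), run in R 4.3.3. Benjamini-Hochberg adjustment ran over all genes, with a threshold of 0.05. The procedure was tested on simulated data with 200 changed genes. The labels do not tie libraries to mice, so p-values reflect the spread among these libraries, which may be technical. No 2 libraries held identical counts. Values of all 10 genes are given against vehicle, and of only some of them between drug groups and in the interaction. Also named are the paralogs, the 5 non-member genes of at least 5 CPM nearest to the set, and related genes that passed. Of the last these were as a rule the 4 with the smallest p-values, here extended in places to all that passed, after their values were seen. Alternatives were DESeq2 1.42.0, limma voom (limma 3.58.1), RLE scaling, no filter, at least 1 CPM in 3 libraries, only the groups compared, a replicate block, GC correction (a spline with 5 degrees of freedom), leaving out the chromosome 17 ribosomal locus, a neutrophil marker covariate, and leaving out each library. The 95% intervals cover the spread between libraries as the model estimates it.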

Additional observations from a re-analysis of the deposited data

Results flagged for a closer look

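Klf2 had a positive interaction of the drugs, a contrast that the vehicle libraries enter. Without vehicle libraries, the combination lay 0.28 log2 units from MBQ-167 and 0.29 from paclitaxel, and neither difference passed. The log2 interaction was 1.65 ± 0.24 (SE; 95% interval 1.14 to 2.16), which passed the edgeR quasi-likelihood test over all genes. Klf2 had 21.8, 19.5 and 19.4 CPM in combination libraries, beside 20.2, 16.9 and 12.7 CPM with MBQ-167 alone, 15.8, 18.2 and 15.6 CPM with paclitaxel alone and 36.8, 49.5 and 41.7 CPM in vehicle libraries. The interaction lay between 1.49 and 1.82 with each of the 12 libraries left out in turn and passed in 7 of those 12 fits. It was 1.54 with the GC correction and 1.73 with the neutrophil covariate, and passed in both. The contrast was among those that chose the genes, so this is a description.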

How the results depend on the processing

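Of 816 single-gene values under the alternatives, 801 kept their direction and 733 also their side of the threshold, while 49 no longer passed and 19 newly passed. These 816 values leave out some pairs of gene and comparison. Left out are, among others, the contrasts between drug groups for Klf4, Klf6 and Klf10, and paclitaxel against MBQ-167 for Klf2. Values near 0 are among those left out. Among the values covered, those that changed sign were all near 0. For Egr2 with MBQ-167 they were 0.02 with limma voom and 0.01, 0.11 and 0.06 without MBQ-167 library 1 and vehicle libraries 1 and 2, in a range of -0.34 to 0.11 over the libraries left out. For Egr2 with paclitaxel they were 0.01 with the GC correction and 0.06 and 0.02 without vehicle libraries 1 and 2 (-0.38 to 0.06). For Egr3 with paclitaxel they were -0.07 with limma voom, -0.20 with the neutrophil covariate, 0.00 with the replicate block, -0.25 without paclitaxel library 3 and -0.07 without vehicle library 1 (-0.25 to 0.25). For Ier2 with MBQ-167 they were 0.02 with the GC correction, 0.07 with the neutrophil covariate and 0.02 without vehicle library 1 (-0.09 to 0.02).

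Of the 10 genes, the number passed with MBQ-167 (2) was 6 with DESeq2, 5 with no filter, 1 with the neutrophil covariate, 0 when only the groups compared were fitted and 1 to 2 with each library left out. With paclitaxel (5) it was 3 with the GC correction, 1 with the neutrophil covariate, 2 with only the groups compared and 2 to 5 with each library left out. With the combination (4) it was 0 with the neutrophil covariate, 0 with only the groups compared and 0 to 4 with each library left out. In the interaction (1) it was 3 with DESeq2 (Klf2, Klf6 and Nr4a1), 3 with no filter (Klf2, Klf4 and Nr4a1) and 0 to 1 with each library left out. Fits of only the groups compared have fewer samples, and the cause of the other differences was not tested. Over all genes, the number called ran from 5 to 392 around 17 with MBQ-167, from 230 to 1772 around 1033 with paclitaxel, from 7 to 958 around 336 with the combination and from 2 to 197 around 11 in the interaction. Around 0 it reached 4 for the combination against MBQ-167, 7 for the combination against paclitaxel and 36 for paclitaxel against MBQ-167.

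Libraries of different groups share only a replicate number. The correlation of their deviations had a median of 0.106 (-0.195 to 0.424) in the 18 same-numbered pairs and -0.05 in the 36 others, and 5 of 12 libraries were most like another of their own number. With the number as a block 1 of the 10 genes passed with MBQ-167, 6 with paclitaxel and 4 with the combination. Egr3, at 8 to 41 counts, is the gene most limited by depth.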
